A study of Cavia porcellus with 14 samples.

Results

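Positions with intermediate DNA methylation were examined in whole blood of newborn guinea pigs, outside scaffold_111, which holds a dense block of listed positions. The authors' deposited table lists 6017 cytosine positions from their comparison of betamethasone with saline, and 4738 of them lay on other scaffolds than scaffold_111. A position was counted as intermediate where the plain mean of the levels in the 2 groups was from 20 to 80%. This gave 835 positions on 115 scaffolds, beside 1346 positions with a lower and 2557 with a higher mean level. The members were thus chosen by the levels of the same 2 groups that are compared here, from a list that the authors had selected for a difference between them. Direction and size over the class are therefore given as a description, and no test of them was made. An exact test at single positions, described further on, uses the same reads and serves only to count and name positions.

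The samples were dried spots of whole blood from female guinea pig (Cavia porcellus) offspring, 7 whose mothers received betamethasone and 7 whose mothers received saline, on gestational days 50 and 51. Betamethasone is a synthetic glucocorticoid given ahead of preterm birth so that the fetal lung matures. The assay was reduced representation bisulfite sequencing. An enzyme cut enriches for CpG-rich fragments, and bisulfite then converts the cytosines that carry no methyl group. The table holds 1 summed read count per group and position and none per animal, so the spread between animals cannot be given and each group is called a pool below. Whole blood mixes many cell types, and a change in a level cannot be told apart from a change in the share of a cell type. Neither strain nor age beyond newborn is used here, and the labels name no batch.

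Cytosine methylation in mammals is placed mostly at CpG, where a given DNA strand either carries the mark or does not. Most CpG sites of a tissue are close to fully methylated, and CpG islands at active promoters are close to unmethylated. An intermediate level in a bulk sample can therefore mean that some molecules are marked and others are not. Known settings for this are imprinted regions, where the parental alleles differ, the inactive X chromosome of females, sites that differ between blood cell types, and the edges of CpG islands. None of these was assigned here, because no source used here names the genome build and no gene, exon or promoter could be matched to the scaffold coordinates.

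Depth at the intermediate positions was a median of 100 reads after betamethasone, with quartiles of 35 and 197. After saline it was a median of 97 reads, with quartiles of 38 and 191.5. The lowest was 10 reads in each. The betamethasone pool had more reads at 435 of the 835 positions and the saline pool at 358. Methylation was higher after betamethasone at 59.4% of the former and 58.1% of the latter, leaving out positions with equal levels. Errors and 95% intervals given below cover read counting alone. Without molecular identifiers, separate reads can come from the same molecule.

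Methylation was higher after betamethasone at 487 of the 835 intermediate positions, lower at 341 and equal at 7. The 487 are 58.3% of the positions, and over the whole list 52.1% were higher. The mean level was 58.4% after betamethasone and 56.4% after saline, and the median difference was 1.60 percentage points (quartiles -4.18 and 7.76). The list as a whole had a median difference of 0.19 points. Most intermediate positions thus differed by a few points in either direction, with more of them on the higher side.

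The share of higher positions and the mean difference depended on which pool set the class. With the class set by the saline level alone, 64.5% of positions with a difference were higher and the mean difference was 3.08 points. With the class set by the betamethasone level alone, 51.8% were higher and the mean difference was 0.09 points. The mean of both levels, used throughout, gave 58.8% and 1.94 points. Among positions whose false discovery rate did not exceed 0.001, the mean difference over the 245 left was 0.87 points.

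The 315 clusters that hold intermediate positions were counted as well, since positions close together share reads. A cluster joins listed positions less than 1000 bp apart, and its direction is that of the mean difference over its intermediate positions. By this count 187 clusters were higher after betamethasone, 126 lower and 2 without a difference. Leaving out the cluster with most intermediate positions left 59.0% of positions higher, and leaving out scaffold_10, which held the most members with 52, also left 59.0%. On scaffold_10 itself 29 positions were higher and 23 lower. More one-sided scaffolds were not left out. On scaffold_1 all 17 positions were higher, by 20.4 points on average, and on scaffold_101 all 6 were lower, with a mean of -12.1 points.

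The absolute difference at intermediate positions was a median of 5.99 points (quartiles 2.58 and 11.3). Its counting error, 1 standard error of a difference between 2 shares of reads, was a median of 6.37 points. At positions with low levels the median absolute difference was 1.15 points beside an error of 1.59, and at positions with high levels 2.70 points beside an error of 3.64. In all 3 classes the median absolute difference was thus under 1 standard error. The 2 are unlike measures, since read counting alone also gives a median absolute difference under 1 standard error. The part of read sampling in the sizes was not tested. The pools differed by at least 10 points at 255 intermediate positions, which is 30.5% of them, against 10.3% of the whole list. The betamethasone level was the higher one at 157 and the lower one at 98, 18.8% and 11.7% of the members. The corresponding shares of the whole list were 5.98% and 4.35%.

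**Figure D1:**
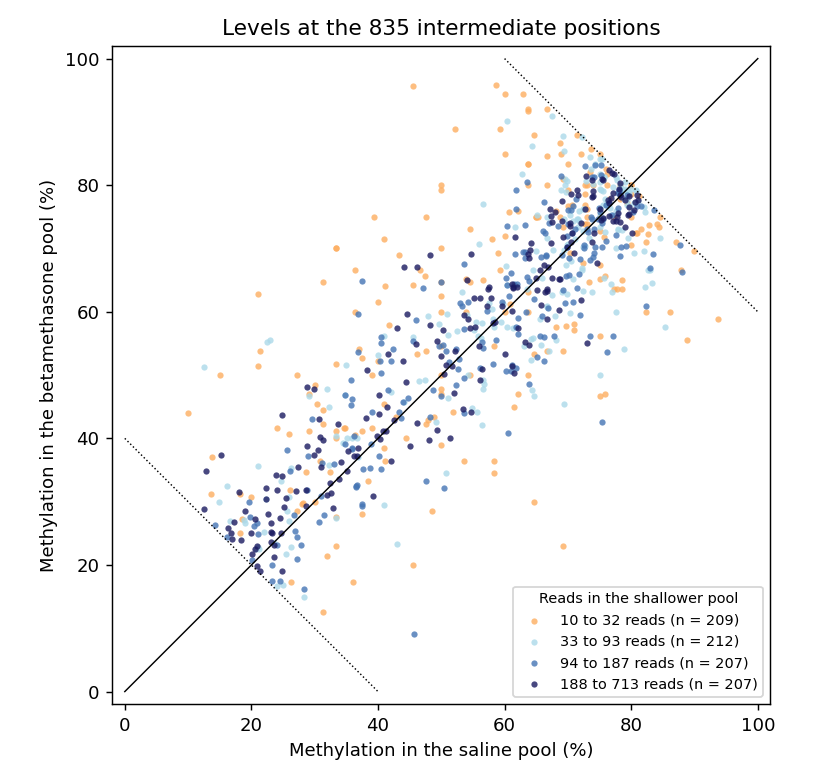
Methylation level of each of the 835 intermediate positions in the saline pool (horizontal axis, percent) and in the betamethasone pool (vertical axis, percent). Points are coloured by the reads in the shallower pool, the solid line marks equal levels and the dotted lines mark mean levels of 20 and 80%. Points of the deepest group, with a median absolute difference of 4.39 points, lie closest to the line as a group, and 487 points are above it and 341 below.

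In most of the 835 positions both pools were inside the bounds. This was so at 686 positions. At 27 positions the saline level was under 20% and the betamethasone level inside the bounds, and at 13 the reverse. At the upper bound, 64 positions had a betamethasone level over 80% and a saline level inside, and 45 the reverse. Positions that straddled a bound were thus more often on the higher side after betamethasone at either end of the class.

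The values next to the bounds show how the class ends. Just inside the lower bound were position 1705443 on scaffold_117 at 19.02% after betamethasone and 21.3% after saline, 9492664 on scaffold_65 at 24.4% and 16.1%, and 24347609 on scaffold_25 at 26.4% and 14.2%. Just outside it were 29648546 on scaffold_18 at 18.5% and 20.5%, 2368720 on scaffold_144 at 24.9% and 14.2%, and 645933 on scaffold_159 at 18.2% and 21.1%. Differences ran from -2.27 to 12.2 points at the former and from -2.93 to 10.7 points at the latter.

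Just inside the upper bound, position 1282465 on scaffold_57 and position 6817501 on scaffold_62 were at 80% in both pools, with 10 reads in each. Position 5267180 on scaffold_64 had 85.0% of 20 betamethasone reads and 75% of 20 saline reads. Just outside were 27501 on scaffold_317 at 92.3% of 26 reads and 67.7% of 31, 2133085 on scaffold_30 at 80.6% and 79.5%, and 32056318 on scaffold_15 at 79.6% and 80.5%.

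Within the class, more positions were higher after betamethasone at its lower end. Between 20 and 30% mean level, 66 of 94 positions were higher and 28 lower, with a median difference of 3.12 points. Between 30 and 40%, 66 of 94 were higher and 27 lower, and the median of 4.22 points was the highest of the 6 bins. Between 40 and 50% it was 49 against 36, with a median of 1.75 points. The upper bins were closer to an even split. From 50 to 60%, 69 positions were higher and 54 lower (median 1.96 points). From 60 to 70%, 67 were higher and 69 lower (median -0.24 points), the only bin in which lower positions were more numerous. From 70 to 80%, which held 300 positions, 170 were higher and 127 lower (median 0.92 points).

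Counted by cluster within a bin, the order was not the same throughout. Higher clusters made up 66.7% of those with a difference in the bin from 20 to 30% and 71.4% from 30 to 40%. They made up 52.7% from 40 to 50% and 65.7% from 50 to 60%. In the bins from 60 to 70% and from 70 to 80% the shares were 50.0% and 58.1%. Below 50% mean level, 181 of 273 positions were higher (mean 36.4% against 32.9%), and at or above 50%, 306 of 562 (mean 69.0% against 67.9%). Whether the lower and upper end of the class differ was not tested, since their levels chose them.

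The absolute difference was largest in the middle of the class. Its median was 5.85 points from 20 to 30%, 6.36 from 30 to 40%, 8.78 from 40 to 50%, 7.40 from 50 to 60%, 6.05 from 60 to 70% and 5.15 from 70 to 80%. The median counting error in these bins was 4.90, 6.90, 6.30, 6.16, 6.24 and 7.09 points. The difference thus exceeded its error most in the bin from 40 to 50%, where 45.9% of positions differed by 10 points or more (25 higher, 14 lower). In the bins from 30 to 40%, from 60 to 70% and from 70 to 80% the error exceeded the difference. The median depth of the shallower pool was 94.5, 110.5 and 68 reads there, against 118 in the bin from 40 to 50%. Read counting alone gives a median absolute difference under 1 standard error. An error above the difference thus does not place a bin within counting error.

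**Figure D2:**
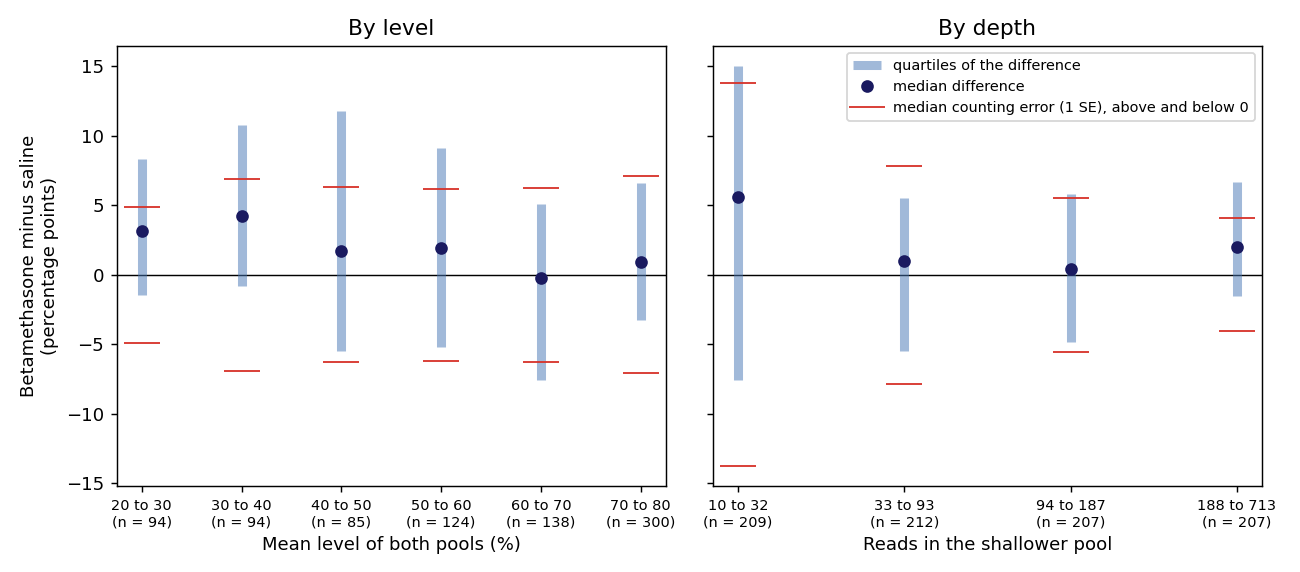
Difference between the pools, betamethasone minus saline in percentage points, by mean level (left) and by reads in the shallower pool (right). Dots are medians over positions, bars run between the quartiles and red dashes mark the median counting error above and below 0. Medians are highest at mean levels of 20 to 40% and in the shallowest group, where the counting error is 13.8 points.

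Depth was described by the reads in the shallower pool, in 4 groups of 207 to 212 positions. In the shallowest group, 10 to 32 reads, 126 of 209 positions were higher after betamethasone and 77 lower, with a median difference of 5.59 points. In the next, 33 to 93 reads, 120 were higher and 92 lower, with a median of 0.99 points. In the group from 94 to 187 reads it was 106 against 100, with a median of 0.41 points. In the deepest group, 188 to 713 reads, 135 were higher and 72 lower, with a median of 2.02 points. The share of higher positions thus had no single trend with depth, as it was largest in the deepest group at 65.2% and smallest in the group before it at 51.5%. By cluster the 4 shares were 60%, 52.9%, 60% and 63.8%, from shallow to deep.

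The size of the difference did follow depth. The median absolute difference was 10.97, 5.52, 5.26 and 4.39 points from the shallowest to the deepest group, and the median counting error was 13.8, 7.86, 5.54 and 4.07 points. In the deepest group the typical difference slightly exceeded its counting error, and in the 3 shallower groups it did not reach it. Read counting alone gives a median absolute difference under 1 standard error, so this does not place the shallower groups within counting error. Differences of 10 points or more were present at 119, 62, 49 and 25 positions in the same order. Depth and level were not independent, since 83 of 207 positions of the deepest group had a mean level under 50% and 52 of 212 in the group from 33 to 93 reads. In the deepest group, 61 of 83 positions under 50% were higher, and 74 of 124 at or above 50%.

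The 25 positions of the deepest group with a difference of 10 points or more are those whose size rests on most reads. Of these, 20 were higher after betamethasone, in 11 clusters, and 5 were lower, in 4 clusters. The lower ones were 28071722 on scaffold_10, 27700848 on scaffold_13, 3249686 on scaffold_28, and 1948842 and 1948871 on scaffold_101. Their differences ran from -17.9 points on scaffold_10 to -10.1 points on scaffold_13. The largest positive difference was at 42827484 on scaffold_1, at 67.0% in 197 betamethasone reads and 44.2% in 197 saline reads.

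Wholly intermediate clusters, in which every listed position had a mean level from 20 to 80%, numbered 60 and held 123 of the 835 positions. Of them, 41 were higher after betamethasone and 19 lower, with a median of 3.41 points (quartiles -1.78 and 8.55). Of these clusters, 30 consisted of 1 position, 26 of 2 to 4 and 4 of 5 or more. Higher clusters numbered 22 of 30, 18 of 26 and 1 of 4 in that order. The means of the 4 clusters of 5 or more were 33.2, -2.26, -3.10 and -9.52 points. A mean difference of 10 points or more was present in 15 wholly intermediate clusters, 14 higher and 1 lower. With the list limited to false discovery rates up to 0.001, 9 wholly intermediate clusters formed, and 22.2% of them were higher.

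Clusters that cross to other levels numbered 255 and held 712 intermediate positions. Over these positions 146 clusters were higher after betamethasone, 107 lower and 2 without a difference, with a median of 1.34 points (quartiles -3.23 and 5.85). The 52 clusters that also held positions under 20% were higher in 34 and lower in 18, with a median of 2.99 points. The 166 that also held positions over 80% were higher in 90 and lower in 74 (median 1.13 points). The 37 that held both were higher in 22 and lower in 15 (median 0.59 points). Clusters crossing to low were deeper, with a median of 135.2 reads in the shallower pool against 77.5 in those crossing to high and 94.5 in the wholly intermediate ones. The types were made from the levels compared, and the difference between them was not tested.

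A large mean difference was one-sided in clusters crossing to low. A mean of 10 points or more was present in 11 of them, and all 11 were higher after betamethasone. Wholly intermediate clusters with means of this size were nearly as one-sided, with 14 higher and 1 lower. Of the 45 such clusters crossing to high, 23 were higher and 22 lower. Clusters with a single intermediate position supplied 39 of the 62 crossing clusters with means of this size, 18 higher and 21 lower. Over all crossing clusters with a single intermediate position, 52 were higher, 57 lower and 2 without a difference. Those with 2 to 4 such positions were higher in 66 and lower in 35, and those with 5 or more in 28 and 15.

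**Figure D3:**
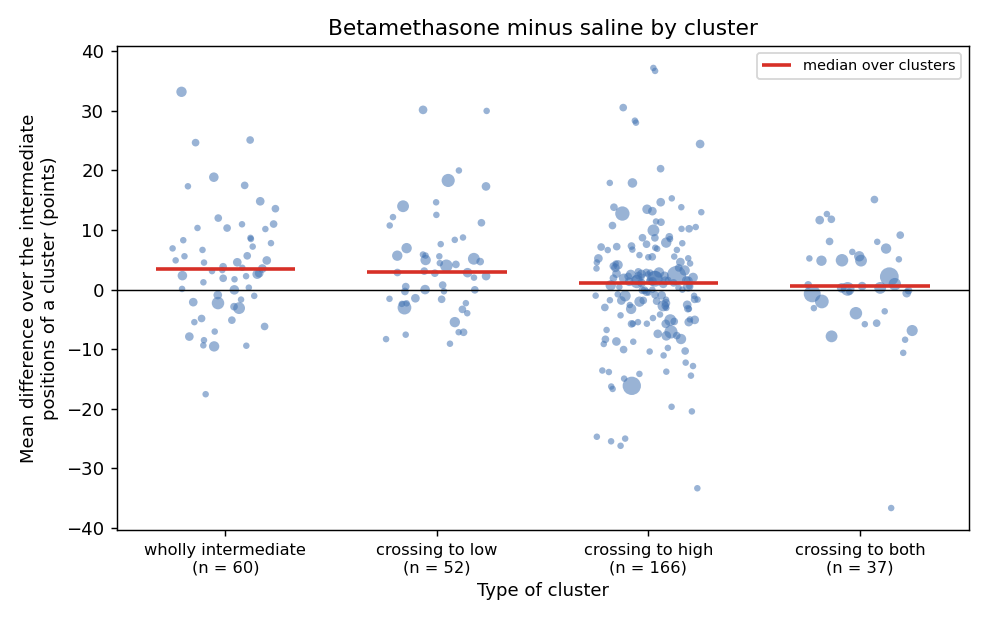
Mean difference over the intermediate positions of each cluster (vertical axis, percentage points, betamethasone minus saline) for the 4 types of cluster. Each dot is a cluster, larger with more intermediate positions and spread sideways for view, and red lines are medians. The medians are 3.41, 2.99, 1.13 and 0.59 points from left to right, and dots lie on both sides of 0 in every type.

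The other positions of a crossing cluster did not closely follow its intermediate ones. In 143 of 253 crossing clusters, 56.5%, the mean difference over the low or high positions had the same sign as that over the intermediate positions. The share was 57.7% in clusters crossing to low, 54.3% in those crossing to high and 64.9% in those crossing to both. The median absolute mean was 5.24 points over the intermediate positions and 1.79 points over the rest, and it was larger over the intermediate positions in 188 of 255 clusters. Positions near 0 or 100% have a smaller counting error, and its part in this was not tested. Where the intermediate mean was 10 points or more, 37 of 62 clusters had the same sign in both. With 5 or more intermediate positions it was 28 of 43, or 65.1%. The part of counting error in the signs was not tested either.

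Clusters going one way throughout were in the minority in total and among the crossing ones, but not among the wholly intermediate ones. Of 101 clusters with 3 or more intermediate positions, all of these positions were higher after betamethasone in 24, all lower in 8, and both directions were present in 69. Among the wholly intermediate ones the counts were 7, 2 and 7, and among the crossing ones 17, 6 and 62.

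The wholly intermediate cluster with the largest difference was on scaffold_1 from 53415017 to 53415075. Its levels at 53415017, 53415020, 53415024, 53415042 and 53415075 were 70%, 75%, 60%, 70% and 64.7% after betamethasone. After saline they were 33.3%, 39.4%, 36.4%, 33.3% and 31.2%. The betamethasone level was thus above the saline level at all 5 positions, while the 95% exact intervals of the 2 levels overlapped at each. The mean difference was 33.2 ± 5.51 points (SD over 5 positions). Each position had 17 to 20 betamethasone and 32 or 33 saline reads, which the positions may share because they lie within 59 bp. The interval of the difference ran from 8.91 to 57.2 points at 53415017 and from -3.66 to 46.6 points at 53415024.

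The deepest of the named clusters was on scaffold_101 from 1948837 to 1948871, with 525 to 541 reads per position and pool. Methylation was lower after betamethasone at all 5 positions. Levels at 1948837, 1948842, 1948866, 1948869 and 1948871 were 39.8%, 44.2%, 51.4%, 55.2% and 50.4% after betamethasone, and 48.1%, 54.7%, 61.2%, 63.3% and 61.4% after saline. Differences lay between -11.04 and -8.06 points, a narrow range for this class, while the saline levels themselves ranged from 48.1 to 63.3%. The positions may share reads because they lie within 35 bp, and so may close positions in the clusters named below. Agreement within a cluster is thus not repeated evidence. The interval of the difference at 1948871 was -16.9 to -5.07 points.

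The other 2 wholly intermediate clusters of 5 or more positions held both directions. On scaffold_45, from 12680040 to 12680421, 2 of 7 positions were higher and 5 lower, with a mean of 39.5% against 42.6%. Its differences ran from -18.8 points at 12680043 (16 reads in each pool) to 15.0 points at 12680419 (22 and 23 reads). At its best covered positions, 12680418 and 12680421, they were -1.33 and -6.81 points on 253 to 306 reads. On scaffold_12, from 20275371 to 20275461, 2 of 8 positions were higher and 6 lower, with a mean of 56.6% against 58.9% on 150 to 226 reads. The next bases 20275431 and 20275432 differed by -4.89 and 12.6 points there, the sharpest step in that cluster.

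A shorter wholly intermediate cluster, singled out because 2 of its positions passed the exact test described further on, lay on scaffold_10 from 39303766 to 39303938. Levels at its 4 positions 39303766, 39303795, 39303932 and 39303938 were 56.1%, 45.3%, 59.6% and 64.9% after betamethasone and 40.4%, 35.8%, 36.8% and 37.4% after saline. All 4 were thus higher, by 9.51 to 27.5 points, on 148 to 155 reads. The saline levels stayed within a few points of each other and the betamethasone levels spread more widely.

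Among crossing clusters with at least 5 intermediate positions, to which the clusters named next are limited, the largest positive mean was on scaffold_13 from 1743630 to 1743938. All 9 intermediate positions were higher after betamethasone, at 46.7% against 28.3%, a difference of 18.3 ± 12.9 points (SD over 9 positions). The 3 positions 1743871, 1743876 and 1743920, with 36 to 49 reads, differed by 32.6, 38.9 and 32.8 points. The 4 positions 1743919, 1743922, 1743933 and 1743938, with 186 to 188 reads, differed by 10.4, 5.11, 12.05 and 8.36 points. Position 1743920 is the base next to 1743919, and their saline levels were 22.4% and 35.8%. The only low position, 1743654, was at 8.33% and 8%.

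On scaffold_1 from 71093567 to 71093690, all 7 intermediate positions were higher after betamethasone, at 32.8% against 18.8%, a difference of 14.0 ± 7.20 points (SD over 7 positions). The largest well-covered differences were at 71093613 (48.1% against 28.7%) and 71093628 (34.8% against 12.9%). At the next base, 71093629, the levels were 27.3% and 20.6%, a difference of 6.75 points. The 3 low positions of the cluster were higher as well, by 5.06 points on average. Over most of this cluster saline levels were close to the lower bound of the class.

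Among the clusters of this size, the largest positive mean with a crossing to high levels was on scaffold_10 from 15895395 to 15895570. All 11 intermediate positions were higher after betamethasone, by 7.91 to 16.9 points, with a mean of 60.1% against 47.3% (difference 12.8 ± 2.71 points, SD over 11 positions). At 15895501, with 409 and 380 reads, the level was 69.2% against 54.7%, a difference with an interval of 7.69 to 21.1 points. The high position 15895569 was at 94.8% after betamethasone and 96.5% after saline. The base next to it, 15895570, was at 49.3% and 35.7%, so adjacent bases had quite different levels in both pools.

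Among crossing clusters with at least 5 intermediate positions, the largest negative mean was on scaffold_10 from 28071722 to 28071914, and 19 of its 22 positions were intermediate. All 19 were lower after betamethasone, with a mean of 56.1% against 72.3% (difference -16.1 ± 6.26 points, SD over 19 positions). After betamethasone the 19 levels ranged from 40.9 to 70.6%, and after saline from 60.2 to 88.0%, so the ranges overlapped while every single position was lower. The largest difference was at 28071846, at 42.6% in 162 reads against 75.4% in 142. The 3 high positions of the cluster were lower too, by 10.2 points on average. Its adjacent bases 28071845 and 28071846 differed by -15.2 and -32.8 points.

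In the next 2 negative clusters of at least 5 intermediate positions, with means of -8.29 and -7.84 points, the difference was uneven along the cluster. On scaffold_309 from 418312 to 418517 the first positions, 418312 and 418317, were at 33.3% and 32.1% after betamethasone and 47.5% and 50.4% after saline. The other 3 intermediate positions differed by -5.87 to 0.28 points, and the 2 high ones by 1.05 and -0.69 points. On scaffold_159 from 644048 to 644467, 3 of 7 intermediate positions were higher and 4 lower. Position 644048 was at 47.1% in 34 reads against 75.9% in 29. The 3 intermediate positions with over 100 reads were higher by 0.90 to 7.30 points. The low position 644408 and the high position 644467, with 256 to 259 reads, differed by -0.24 and 0.77 points. 

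**Figure D4:**
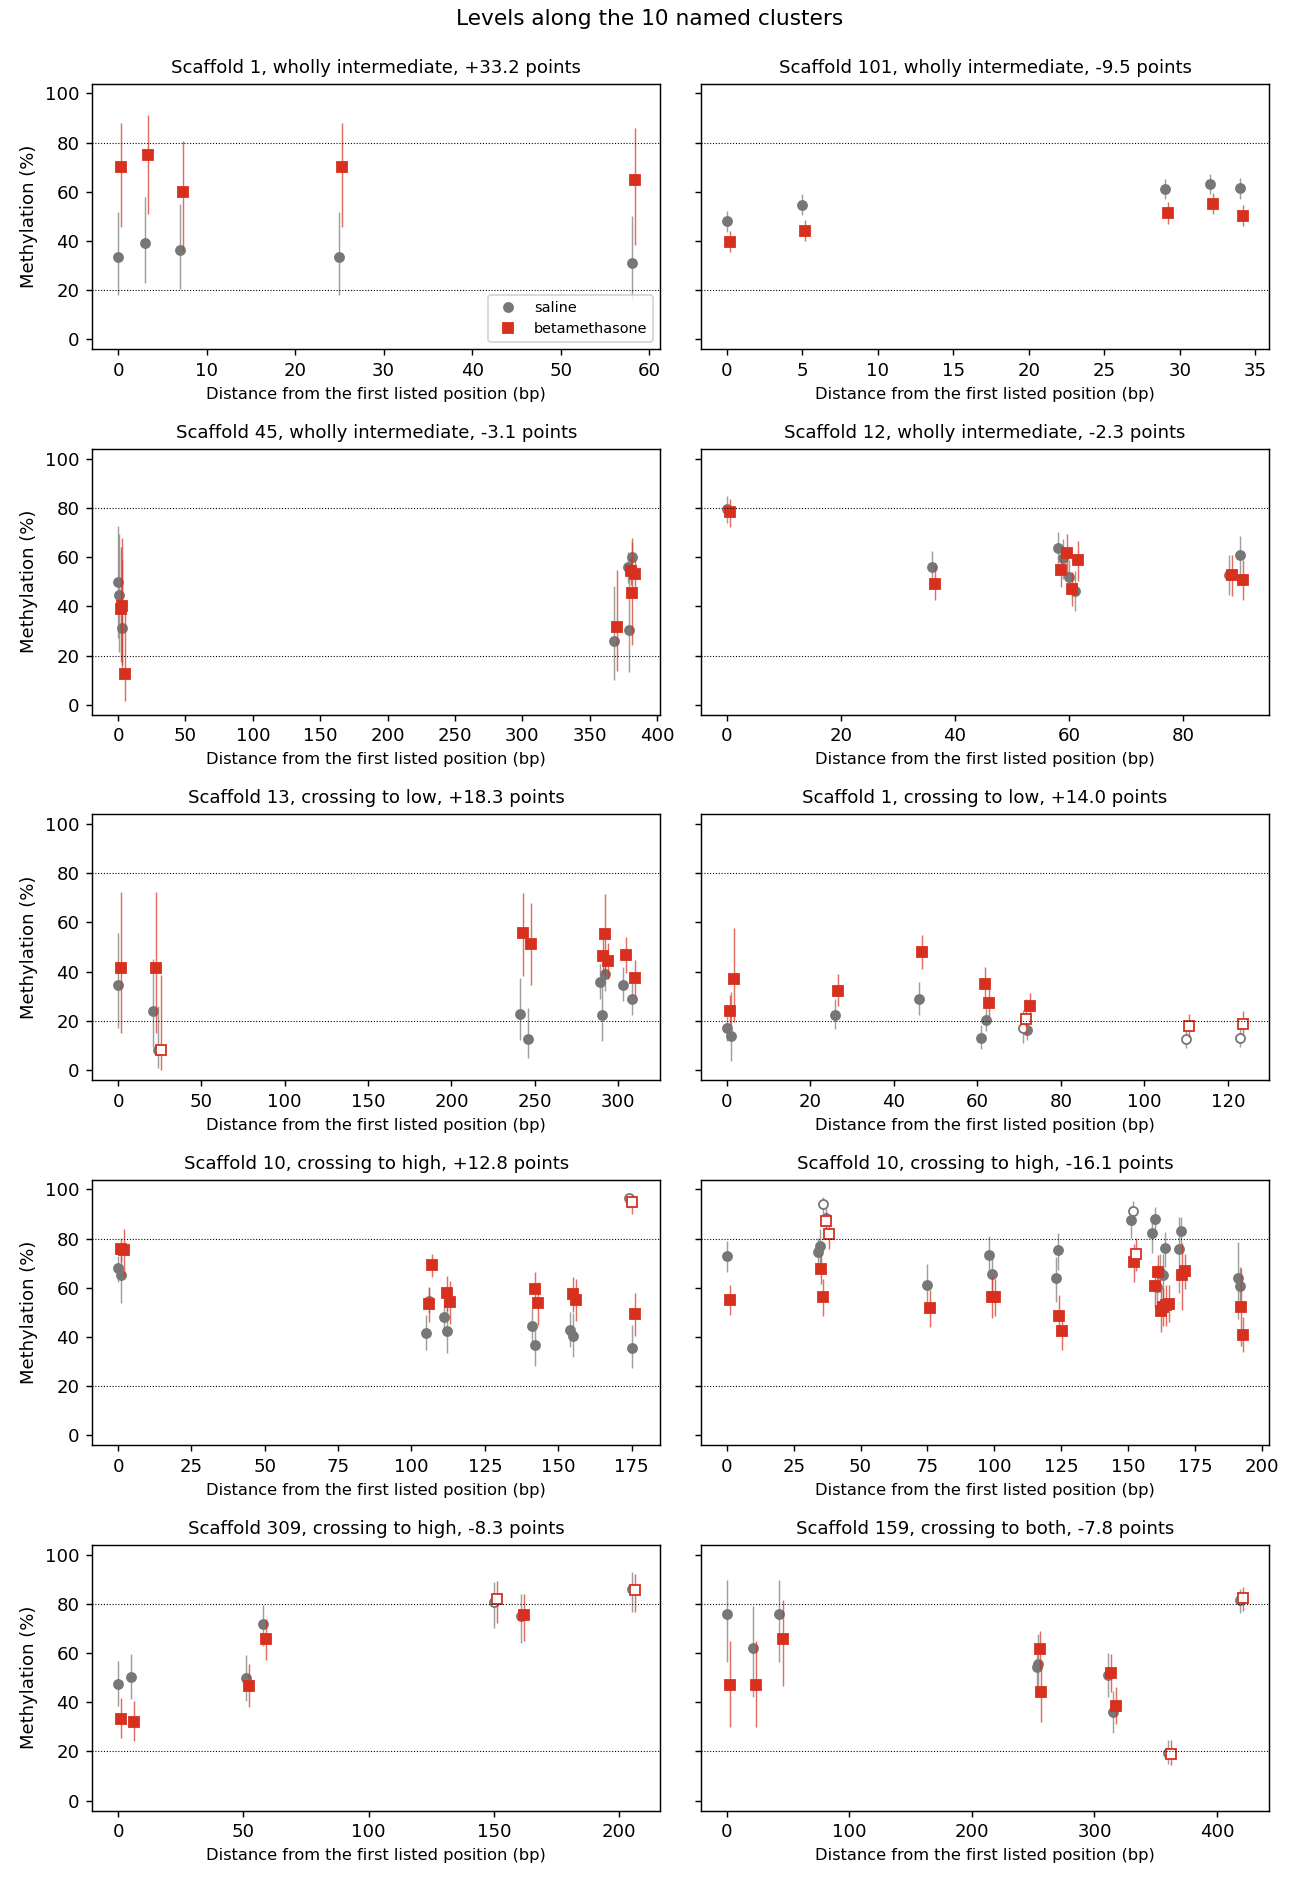
Methylation level (vertical axis, percent) against distance from the first listed position (horizontal axis, bp) in the 4 wholly intermediate clusters of 5 or more positions and 6 crossing clusters. Squares are the betamethasone pool, moved slightly to the right, circles the saline pool, open symbols low or high positions and bars 95% exact intervals of read counting. Squares lie above circles throughout the cluster with a mean of 33.2 points and below them throughout the one with -16.1 points. On scaffold_45 and scaffold_12 squares lie above circles at some positions and below them at others.

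Methylated and unmethylated reads of the pools were compared by Fisher's exact test at every listed position, with Benjamini-Hochberg adjustment over all 6017. It compares 2 pools of reads and not 7 animals with 7, and the list had been selected on the same reads. An adjusted p under 0.05 was reached at 19 intermediate positions (12 higher, 7 lower) in 9 clusters, or 2.28% of the members, against 0.399% of the list. The higher ones were 1.44% of the members against 0.249% of the list, and the lower ones 0.84% against 0.15%. At an unadjusted p under 0.05 it was 122 positions (86 higher, 36 lower), 14.6% against 6.02%. None of the 19 lay in the 2 shallower depth groups, 8 were in the group from 94 to 187 reads and 11 in the deepest. Without scaffold_10, the count was 8.

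Of the 19, 6 lay in the lower cluster on scaffold_10 from 28071722, where close positions may share reads. The other lower position was 27900119 on scaffold_25. Position 27900119 was at 9.09% in 132 betamethasone reads and 45.7% in 94 saline reads. Its listed neighbours 27900113 and 27900141 were at 96.6% and 97.0% after betamethasone and at 94.2% and 97.9% after saline. The next base, 27900120, was at 3.23% of 31 reads and 23.1% of 13. A single adjacent pair of bases was thus far below its neighbours in both pools, and lower in the betamethasone pool. The sequence at these bases was not examined.

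The 12 higher positions lay in 7 clusters. On scaffold_1 from 42827484 to 42827565, the positions 42827484, 42827499 and 42827500 were at 67.0%, 69.0% and 67.1% after betamethasone and at 44.2%, 48.2% and 46.2% after saline. Further along, 42827557 was at 80.8% against 73.8%, and the 3 high positions of the cluster were lower by 5.79 points on average. At each of these 3 the interval of the difference included 0. Positions 42827556 and 42827564 differed by -9.52 and -6.68 points on 21 to 47 reads. Position 42827565 differed by -1.17 points on 292 and 309 reads.

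On scaffold_10 from 40025233 to 40025401, 3 of 9 listed positions were intermediate, and all 9 were higher. Of the 3, those past the test were 40025345 at 28.8% against 12.4% and 40025401 at 37.5% against 15.2%. Position 40025346, at 31.5% against 18.0%, was not past it. The 6 low positions were higher by 10.2 points on average. On scaffold_5, position 41701803 was at 43.6% in 220 reads against 24.9% in 233. The 4 low positions that followed it were higher by 4.06 points on average. On scaffold_2679, position 2686 was at 47.8% in 247 reads against 29.9% in 204, while position 2671, 15 bp before it, was at 95.8% against 95.6%. The remaining 5 lay in clusters described above, on scaffold_1 from 71093567 and on scaffold_10 from 15895395 and 39303766.

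Intermediate positions on adjacent bases may be the C of either strand of a single CpG, which was not checked for want of the sequence. There were 91 such pairs with no further listed position next to them. Their mean levels lay close together, a median of 2.51 points apart (r = 0.94 across 91 pairs), while their differences between pools lay 5.79 points apart (r = 0.48). Of 90 pairs with a direction at both positions, 55 had the same one, 34 higher and 21 lower. The direction was shared by 20 of the 25 pairs with a difference of at least 10 points at the first position, and by 35 of the other 65. In pairs with over 90 reads at both positions the differences lay a median of 3.90 points apart (r = 0.67 across 45 pairs), and in the shallower ones 8.68 points apart (r = 0.33 across 46 pairs). Several of the 25 pairs lie in the same cluster, as on scaffold_10 from 15895395 and from 28071722, and are not independent. The positions of a pair also share the animals and the pools, so these values are descriptions.

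**Figure D5:**
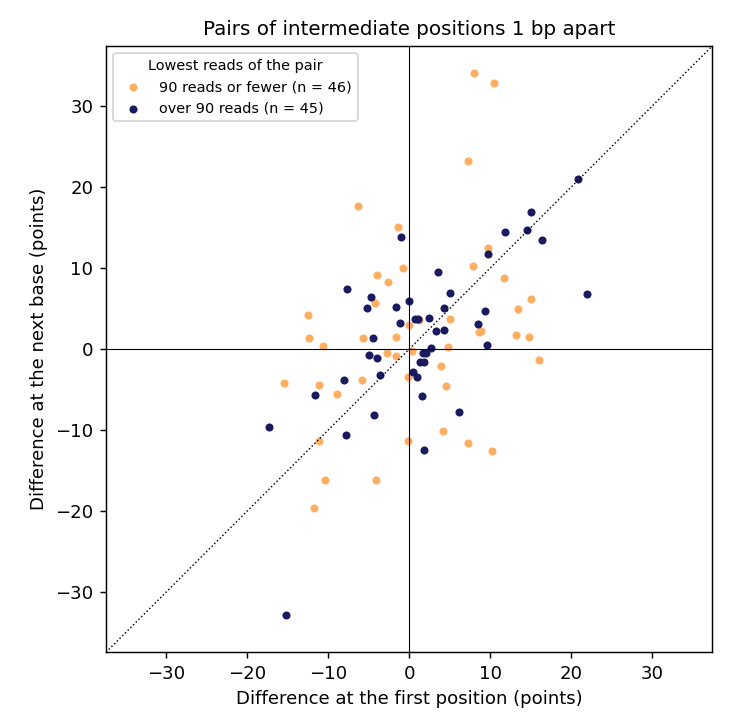
Difference at the first position (horizontal axis) and at the next base (vertical axis), betamethasone minus saline in percentage points, for 91 pairs of intermediate positions 1 bp apart. The dotted line marks equal differences, and colour gives the lowest number of reads at either position in either pool. Pairs with over 90 reads lie closer to the dotted line than the others, a median of 3.90 against 8.68 points between the 2 differences.

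Neighbouring intermediate positions further apart had the same direction in 69 of 95 pairs at 2 to 10 bp (72.6%). The counts were 103 of 152 at 11 to 100 bp (67.8%) and 19 of 30 at 101 to 999 bp (63.3%). In the pairs 1 bp apart the share was 61.1%. The sizes of the differences were less alike at the longer distances. They lay a median of 4.83, 6.99 and 9.39 points apart in the same order (r = 0.59 across 96 pairs, 0.47 across 157 and 0.14 across 30). Mean levels of the pairs further apart differed more, with medians of 8.13, 11.3 and 11.8 points. Where an intermediate position had a low or high position as the next base, 28 of 61 pairs had the same direction.

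The largest differences at single intermediate positions rested on few reads. The highest was 50.2 points (interval 18.9 to 74.6) at 2132889 on scaffold_30, with 23 and 11 reads, in a cluster of 67 listed positions within 313 bp. The other 66 positions of that cluster differed by 0.03 points on average. Position 17470029 on scaffold_25 differed by 41.8 points on 35 and 19 reads, while the other 7 positions of its cluster differed by 7.61 points on average. Position 34165463 on scaffold_4 was at 95.8% of 24 reads and 58.6% of 29, and position 40277853 on scaffold_5 at 88.9% of 18 and 52.2% of 23. The other positions of their clusters were lower, by 0.32 and 13.3 points on average. The remaining one of the 5 highest was 1743876 on scaffold_13, in the cluster described above.

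The same held at the negative end. Position 642117 on scaffold_159 differed by -46.2 points on 13 reads in each pool, and the other 13 positions of its cluster by 0.63 points on average. Position 465620 on scaffold_171 differed by -34.9 points on 17 and 16 reads, and its 5 neighbours by -0.95 points. Position 5713113 on scaffold_62 differed by -34.7 points on 10 and 17 reads, and its 7 neighbours by 0.32 points. Position 2639923 on scaffold_75 differed by -33.3 points on 18 reads in each pool, and its only listed neighbour by 5.56 points. Of the 5 lowest, only 27900119 on scaffold_25 had over 20 reads in a pool. Averaged over their neighbours, the differences in these 4 clusters were thus only -0.95 to 5.56 points.

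In the authors' deposited table, the first of 2 p-values was under 0.05 at 85 intermediate positions, or 10.2%, against 6.2% of the whole list. Among these 85, methylation was higher after betamethasone at 63 and lower at 22, and 77 differed by at least 10 points. Their median absolute difference was 19.1 points. The authors' false discovery rate, which orders positions almost exactly as the second p-value does, had a median of 0.0093 at the intermediate positions and was 0.01 or less at 424 of them. Over the 835 positions that p-value had 436 distinct values, so many positions shared it with others. At 27900119 on scaffold_25 the authors' first p-value was 0.162. At 28071846 on scaffold_10 it was 0.0064, the lowest in its cluster. In that cluster it was under 0.05 at 5 of 19 intermediate positions, and in the one on scaffold_10 from 15895395 at 2 of 11.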

How the data were processed

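Reduced representation bisulfite libraries of 14 animals, 7 per group by sample title, were processed with SAMtools 1.9, Bowtie2 2.3.4.3, Bismark 0.16.0 and Trim Galore, per the submitters' processing notes. The settings, genome build, differential test and filters of the authors were not given in the sources used here. Deposited coverage and methylated reads are whole-number counts, summed by group. The authors' fraction is methylated reads divided by coverage, and the deposited difference is in percentage points. The deposited p-values and false discovery rate are the authors'. Saline is the control in the series design, so case columns were read as betamethasone.

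Levels recomputed from counts matched the deposited ones within 1e-06 points. Members, lists and tests were chosen with earlier results of these data known. Positions named are the 5 largest differences each way, those past Fisher's exact test and those next to the bounds. Clusters named are the wholly intermediate ones of 5 or more positions and the 3 crossing ones with the largest mean each way over at least 5 intermediate positions. The short cluster on scaffold_10 from 39303766, the large differences of the deepest group and the neighbours of named positions were singled out after their values were seen. Intervals are Newcombe's for a difference and Clopper-Pearson for a level. The scripts were tested on simulated data. Software was matplotlib 3.10.9, statsmodels 0.14.6, scipy 1.17.1, pandas 2.3.3, numpy 2.4.6 and Python 3.11.15. Alternatives changed the level bounds, the pool that sets the class, depth, false discovery rate, cluster distance and scaffolds.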

Additional observations from a re-analysis of the deposited data

How the results depend on the processing

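No result of the intermediate positions changed direction except 1. At false discovery rates up to 0.001, 22.2% of 9 wholly intermediate clusters were higher after betamethasone against 68.3% of 60, and the share was 53.1% of positions (mean difference 0.87 points) and 53.5% of clusters. Fewer positions form other clusters there, and the cause was otherwise not tested. With the class set by the saline level alone the shares were 64.5% of positions and 66.4% of clusters, with a mean difference of 3.08 points. With the betamethasone level alone they were 51.8% and 50.5%, with 0.090 points. Both of these, the merging of positions 1 bp apart and the cluster left out were chosen after seeing the data. The median absolute difference was 6.77 points for levels of 30 to 70% and 4.99 points with at least 50 reads in both pools. Fisher's exact test, adjusted again within the shorter lists, passed at 4 positions at false discovery rates up to 0.01 and at 2 up to 0.001, against 19. Without scaffold_10 it passed at 8, fewer by construction. The share of higher crossing clusters stayed between 55.6 and 58.9% in all 8 alternatives tried for it. Alternatives not named here moved no share, mean or median outside its interval and no count by over 1.5 times. No paired analysis was possible because reads were summed by group, which also prevents leaving out an animal. Depth limits single positions: the median counting error of a difference was 6.37 points.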
